A study of Homo sapiens with 11 samples.

Results

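The genes described here are 10 enzymes and subunits that modify collagen: the prolyl 4-hydroxylase subunits P4HA1, P4HA2, P4HA3 and P4HB, the lysyl hydroxylases PLOD1, PLOD2 and PLOD3, and the lysyl oxidases LOX, LOXL2 and LOXL4. They were taken by symbol from a table of 28152 gene symbols, and all 10 passed the count filter that left 16653 genes for testing. The set was chosen by a measured value: it was built around P4HA1 because its counts differed between the drug and vehicle groups in these same libraries. Values of that comparison are therefore given for the 10 genes as a description, without p-values.

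RNA was sequenced from tumours of the human line BT-474, labelled as hormone receptor and HER2 positive breast cancer, grown in the mammary fat pad of female athymic nude mice. All animals carried a slow-release pellet of 0.72 mg estradiol made to last 90 days, and all received cells in a 50% Matrigel suspension. From a tumour size above 95 cubic millimetres, animals were injected under the skin every 4 days with 5% mannitol in water (vehicle, 6 libraries) or with evexomostat at 12 mpk in the same solution (5 libraries), and all libraries carry the label of day 33. Evexomostat inhibits methionine aminopeptidase 2, an enzyme that removes the first methionine from new proteins. The comparison asks which transcripts differ between tumours of treated and vehicle animals. Athymic mice lack T cells but keep fibroblasts, vessels and other leukocytes, and how reads from mouse cells were handled is not given in the sources used here.

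Collagen chains are hydroxylated in the endoplasmic reticulum before they fold into a triple helix. Prolyl 4-hydroxylase is built from alpha subunits (P4HA1, P4HA2 or P4HA3), which hold the catalytic site, and from P4HB, which is also a protein disulfide isomerase. Its product, hydroxyproline, keeps the helix stable at body temperature. Lysyl hydroxylases modify lysines that later carry sugars or cross-links, with PLOD2 acting mainly on the ends of the chains. After secretion, lysyl oxidases convert lysines to reactive aldehydes that cross-link fibrils. The hydroxylases need oxygen, iron, 2-oxoglutarate and ascorbate, and P4HA1, P4HA2, PLOD2 and LOX are textbook targets of the hypoxia-inducible factors, which bind a core of ACGTG or GCGTG.

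Sites of ACGTG are shown for the genes whose searched windows held it, and sites of GCGTG are not shown. Upstream windows of 250 bases were read from the RefSeq promoter table (build GRCh38.p14), which held 8 of the 10 genes, with 3 start sites for LOX. Both strands were searched for ACGTG and GCGTG, and capitals mark the match in 29 bases of the strand of the gene, 5′ to 3′. ACGTG is also the end of the E-box CACGTG, but none of the windows of these 8 genes held CACGTG. P4HA1 held 1 match, 86 bases before its start, at chr10:73096936-73096964 (minus strand).
P4HA1: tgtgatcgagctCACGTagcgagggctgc
PLOD2, at chr3:146161314-146161342 and chr3:146161368-146161396 (minus strand), held ACGTG 146 and 200 bases before its start.
PLOD2, 146 bases: caaacagtccagACGTGgggcccaggagg
PLOD2, 200 bases: cgtgagcctccaCACGTagccgcaggcag
LOX held ACGTG at 4 places before its outermost start, of which the nearest, 42 bases away, lies at chr5:122078285-122078313 and the next, 98 bases away, at chr5:122078341-122078369 (minus strand).
LOX, 42 bases: gtaactttgcaaACGTGccagaaagttta
LOX, 98 bases: tccaatcgcattACGTGaacaaatagctg

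ACGTG was in the windows of 3 of the 8 genes, and ACGTG or GCGTG in those of 5 of 8 (P4HA1, P4HB, PLOD1, PLOD2 and LOX). Over all 35116 windows of the same length in the table, 18.5% held ACGTG and 43.2% held either. Being upstream of the RefSeq start does not make a window free of transcript: by GENCODE release 29, annotated exons covered 250 of the 250 bases for PLOD3, 167 for P4HA2, 159 for P4HB, 108 for P4HA1, 56 for LOXL4 and 70 to 119 for the 3 LOX windows, and 0 for PLOD1 and PLOD2. P4HA2, PLOD3 and LOXL4 had no match in these windows, which says only that these letters are not there. A match is a description of the sequence and not a measured binding site.

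Library totals ranged from 22808033 to 39249329 counts. The library of vehicle replicate 001 was unlike the other 10. Its 100 most abundant genes took 23.9% of all counts (16.2% to 17.9% elsewhere) and ribosomal protein genes 13.5%, so fold changes are also given without it. Ribosomal protein genes held 4.57% to 6.55% of the counts in the other 5 vehicle libraries and 6.68% to 8.24% in the evexomostat libraries. The part of RNA quality in the values below was not tested. Markers of the labelled cell type were uneven: KRT8 averaged 332 RPM (read counts scaled to equal library totals) and KRT18 149. ERBB2, the gene of the labelled HER2, was below both at 53.7. Whether that level is that of a HER2 positive tumour was not tested. Lower still were ESR1 at 0.285, PGR at 0.0655, EPCAM at 3.03 and CDH1 at 0.456. The other listed markers were also low, with GATA3 at 6.50, FOXA1 at 1.05, KRT19 at 0.803 and GRB7 at 0.303. The libraries are therefore called by their labels only. Summed over each marker list, the vehicle and evexomostat ranges were 338 to 756 and 478 to 651 RPM for luminal and HER2 genes (7 of 11 higher under evexomostat). They were 11.3 to 24.1 and 11.5 to 16.3 for endothelium (3 of 6 higher) and 26.3 to 40.8 and 34.7 to 50.2 for leukocytes (4 of 6 higher). Skeletal muscle genes ranged from 1.44 to 19.3 and from 1.56 to 484, highest in evexomostat replicate 005 (7 of 8 higher). Adipocyte genes ranged from 0.345 to 1.90 and from 0.315 to 2.86, with ADIPOQ at 0 in all libraries (2 of 5 higher).

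P4HA1, a catalytic alpha subunit, was lower in every evexomostat tumour than in any vehicle tumour. Its level, in CPM (counts scaled to library totals with TMM factors), was 115, 164, 121, 79.7, 86.9 and 202 in vehicle replicates 001, 003, 004, 005, 006 and 007. In evexomostat replicates 002, 003, 004, 005 and 007 it was 57.0, 39.9, 51.8, 50.1 and 49.5. The groups did not overlap, and the evexomostat tumours lay close together while the vehicle tumours spread widely. The vehicle mean was 128 ± 46.9 CPM (SD, n = 6) and the evexomostat mean 49.7 ± 6.19 (SD, n = 5). The fitted log2 fold change was -1.37 (SE 0.23). It was the 215th lowest fold change of 16653 tested genes, and it was -1.39 (SE 0.23) without vehicle replicate 001. In these bulk libraries, fewer cells of a type and less RNA per cell cannot be told apart.

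P4HA1 was the 1 member of 10 past an adjusted p-value of 0.05 in edgeR's quasi-likelihood test over all genes, where 0.606% of tested genes were called in either direction, 0.432% as lower and 0.174% as higher. It was also the 1 member without overlap between the groups, beside 1.64% of all genes wholly lower and 1.33% wholly higher. Nothing is read from that count, since the call is what chose the set. The call was also lost when any one of the 5 evexomostat libraries was left out, although the log2 fold change then stayed at -1.42, -1.30, -1.38, -1.37 and -1.37 without replicates 002, 003, 004, 005 and 007. It held without any one vehicle library. In the authors' deposited table P4HA1 had a log2 fold change of -1.27 and was likewise the 1 member of 10 under an adjusted p-value of 0.05, where 0.952% of all listed genes were (0.536% as lower).

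**Figure D1:**
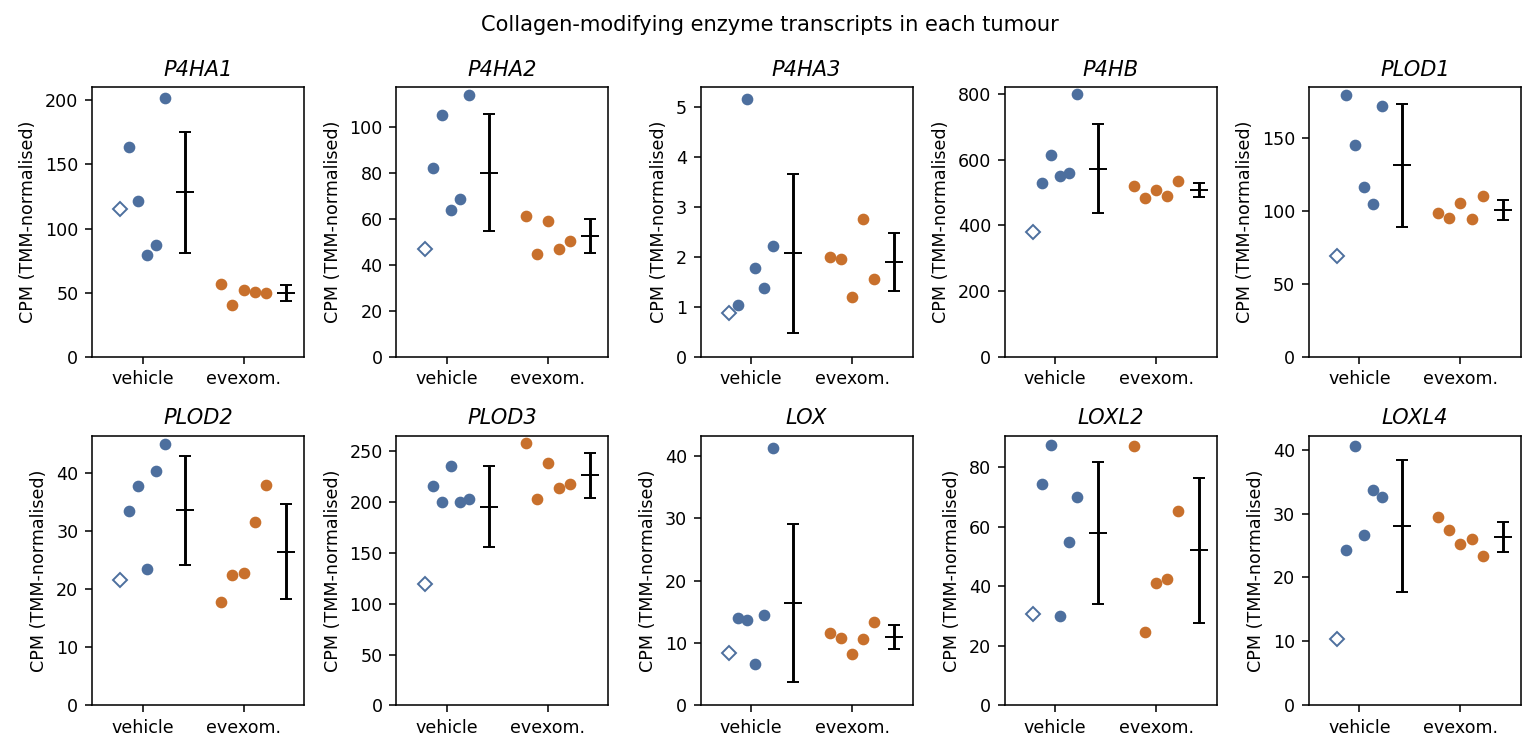
Level of each of the 10 genes in each tumour, in TMM-normalised CPM on a linear axis from 0 (blue, 6 vehicle libraries, with replicate 001 as an open diamond; orange, 5 evexomostat libraries; bars, mean ± SD). In P4HA1 all evexomostat tumours (39.9 to 57.0) lie under all vehicle tumours (79.7 to 202), while in the other 9 genes the groups overlap.

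P4HA2, the other widely expressed alpha subunit, differed less and its groups overlapped. Its vehicle tumours ranged from 46.9 to 114 CPM, with a median of 75.4, and its evexomostat tumours held 61.2, 44.8, 58.9, 47.0 and 50.3 CPM in the same order of replicates as above. The overlap came from vehicle replicate 001, which held the lowest vehicle value. The log2 fold change was -0.61 (SE 0.21), and -0.72 (SE 0.17) without that library. Without it the groups no longer overlapped and P4HA2 joined P4HA1 past the threshold, so 2 of 10 members were called, both lower. In that comparison 5.22% of all genes were called (3.24% lower, 1.98% higher), and 4.38% were wholly lower and 3.98% wholly higher without overlap.

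P4HA3, the third alpha subunit, was close to the limit of measurement, with 18 to 180 counts per library. Its vehicle tumours ranged from 0.873 to 5.15 CPM (median 1.58) and its evexomostat tumours from 1.20 to 2.75. The log2 fold change of -0.14 (SE 0.42) turned to 0.37 without vehicle replicate 004, which held the highest value, so no direction is given.

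P4HB, the beta subunit, was the most abundant of the 10, ranking 203rd of all tested genes. Vehicle tumours held 381 to 799 CPM (median 555) and evexomostat tumours 520, 483, 508, 488 and 535. The evexomostat tumours all lay inside the vehicle range, at a log2 fold change of -0.18 (SE 0.17). That difference was close to its SE, and it was -0.26 (SE 0.12) without vehicle replicate 001.

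Ratios of counts within a library do not depend on how libraries are scaled. The count of P4HA1 per count of P4HB was 0.303, 0.309, 0.197, 0.145, 0.155 and 0.253 in the vehicle libraries, in the order given above. In the evexomostat libraries it was 0.110, 0.0827, 0.102, 0.103 and 0.0924, all lower than any vehicle value. P4HA2 per P4HB overlapped between the groups, at 0.116 to 0.171 against 0.0927 to 0.118. P4HA1 per P4HA2 did not overlap, at 1.16 to 2.46 under vehicle and 0.879 to 1.07 under evexomostat. The difference of P4HA1 between these groups chose the set, so nothing is read from the separation of its ratios. How often ratios of other genes separate was not tested.

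Levels of different genes were compared per kilobase of exon, with lengths from GENCODE release 29 (GRCh38), which may differ from the models the authors counted on. On that scale P4HA1 made up 65.6% ± 7.04 (SD, n = 6) of the summed alpha subunit transcripts under vehicle and 53.1% ± 1.61 (SD, n = 5) under evexomostat. P4HA2 made up 33.0% ± 6.28 and 44.2% ± 2.17, and P4HA3 1.40% ± 0.95 and 2.65% ± 0.922. The share of P4HA1 was 57.6% or more in every vehicle tumour and 55.2% or less in every evexomostat tumour. That separation, too, is a description only, since it holds the difference that chose the set. P4HA1 remained the largest share of the 3 in every library.

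**Figure D2:**
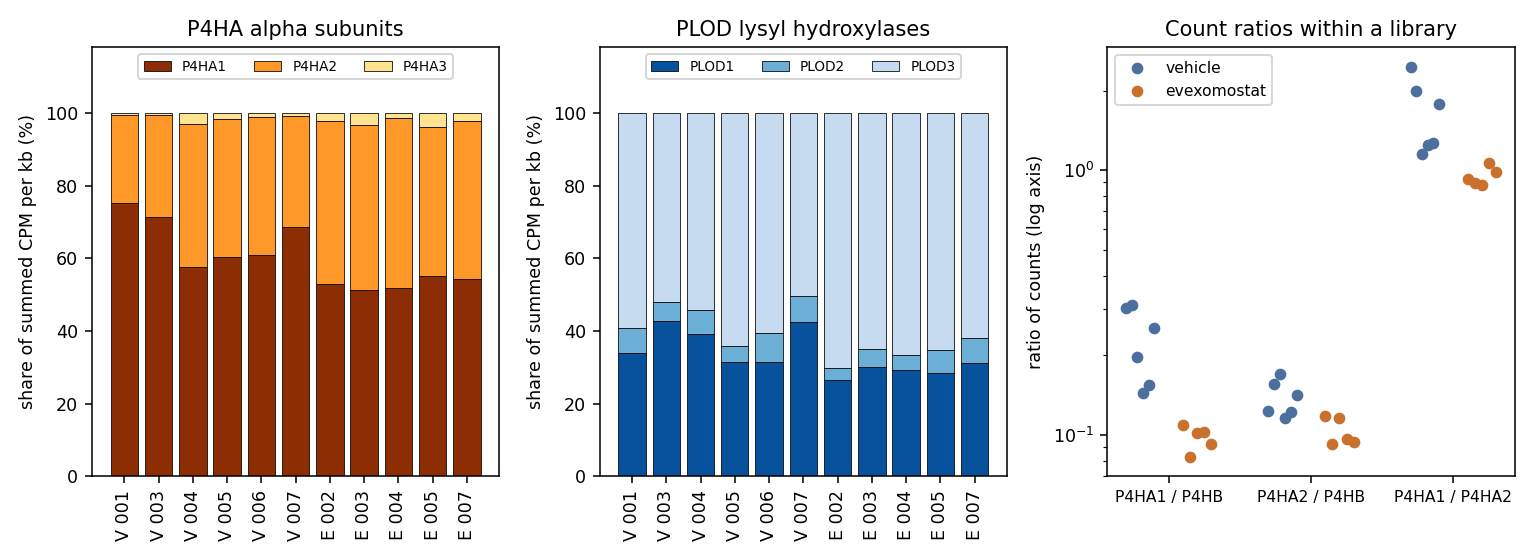
Left and middle, share of each alpha subunit and each lysyl hydroxylase in its family's summed CPM per kilobase, in percent, for each library (V, vehicle; E, evexomostat). Right, ratios of counts within a library on a log axis, not corrected for length. The P4HA1 share is 57.6% to 75.2% in vehicle and 51.4% to 55.2% in evexomostat libraries, and P4HA1 per P4HB and per P4HA2 do not overlap between the groups. P4HA1 chose the set by its difference between these groups, so these separations are a description.

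Of the 3 lysyl hydroxylases, PLOD1 and PLOD2 had log2 fold changes below 0 and PLOD3 above 0, and none was called with all libraries. Whether the 3 differed from each other was not tested. PLOD1, which modifies lysines along the helix, held 69.1 to 179 CPM under vehicle (median 131) and 98.4, 94.9, 105, 94.4 and 110 under evexomostat. All evexomostat tumours lay above vehicle replicate 001. Of the other 5 vehicle tumours only replicate 006, at 104.9 CPM, was below any evexomostat tumour. The log2 fold change was -0.38 (SE 0.21), and -0.51 (SE 0.15) without vehicle replicate 001.

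PLOD2, the telopeptide lysyl hydroxylase, overlapped between the groups. It held 21.5 to 45.0 CPM under vehicle (median 35.6) and 17.8, 22.4, 22.7, 31.5 and 37.9 in the evexomostat tumours. The fold change on the log2 scale was -0.34 (SE 0.23). Evexomostat replicates 005 and 007 were at the level of the vehicle median, and the other 3 were below the second lowest vehicle tumour (23.4). PLOD2 and LOXL2 were the 2 members whose relative spread was not smaller under evexomostat, with a coefficient of variation of 30.6% against 28.0% under vehicle for PLOD2.

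PLOD3, which also adds sugars to hydroxylysine, was the 1 member with a fold change above 0. Vehicle tumours held 120 to 235 CPM (median 202) and evexomostat tumours 258, 203, 238, 214 and 218. The lowest vehicle value, 119.7 CPM, was again replicate 001, and the other 5 lay between 199.8 and 235. The log2 fold change was 0.21 (SE 0.16) with all libraries and 0.11 (SE 0.09) without that one. Per kilobase, PLOD3 was the most abundant of the 3, with 56.7% ± 5.41 (SD, n = 6) of the family under vehicle and 65.8% ± 3.04 (SD, n = 5) under evexomostat. PLOD1 took 36.9% ± 5.21 and 29.1% ± 1.72. Its evexomostat tumours (26.6% to 31.1%) lay only just under its vehicle tumours (31.5% to 42.8%). Counts of PLOD1 per count of PLOD3 overlapped, at 0.494 to 0.847 under vehicle and 0.381 to 0.505 under evexomostat. How often such shares separate in other genes was not tested. PLOD2 took 6.42% ± 1.41 and 5.09% ± 1.59.

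LOX, the founding lysyl oxidase, was low and its vehicle mean rested on 1 tumour. Vehicle tumours held 6.65 to 41.3 CPM (median 13.9), with 41.3 in replicate 007 and 14.5 or less in the other 5. Evexomostat tumours held 11.7, 10.8, 8.15, 10.7 and 13.3 CPM. The log2 fold change of -0.59 (SE 0.39) became -0.07 without vehicle replicate 007.

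LOXL2, which cross-links collagen IV among other substrates, varied more between tumours than between groups. It held 30.0 to 87.4 CPM under vehicle (median 62.4) and 87.1, 24.5, 41.2, 42.3 and 65.4 in the evexomostat tumours. Its log2 fold change was -0.15 (SE 0.34). The lowest evexomostat tumour was below the vehicle range and the highest was near its top. LOXL4 held 10.4 to 40.6 CPM under vehicle (median 29.6) and 29.5, 27.4, 25.3, 26.1 and 23.4 under evexomostat, at -0.09 (SE 0.26). LOXL2 and LOXL4 both changed sign in alternatives that left out 1 library, so no direction is given for either.

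**Figure D3:**
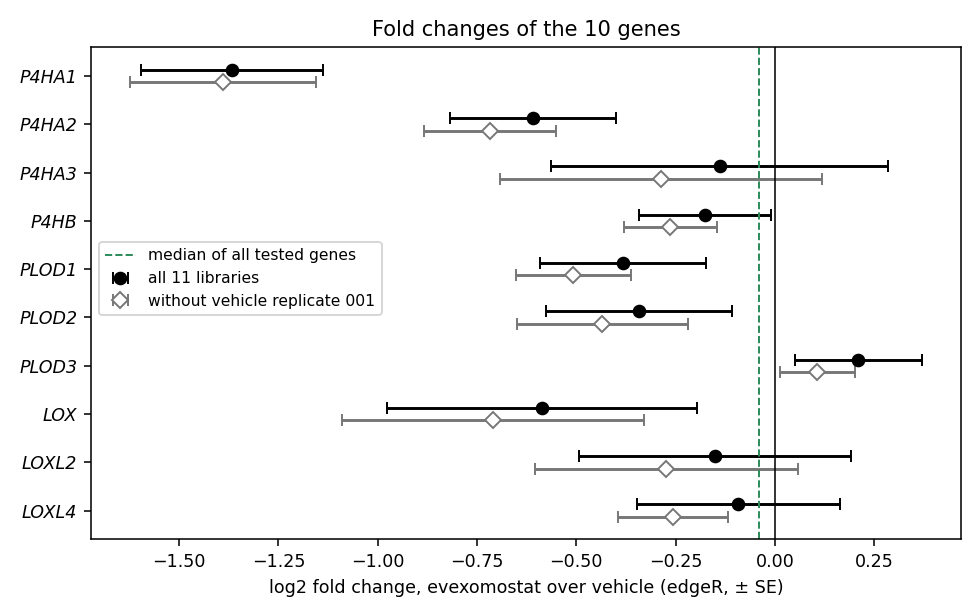
Log2 fold change of each gene, evexomostat over vehicle, from edgeR with its SE, for all 11 libraries (filled circles) and without vehicle replicate 001 (open diamonds); the dashed line is the median of all tested genes, -0.04. P4HA1 (-1.37) lies lowest, P4HA2 (-0.61) and LOX (-0.59) follow, and PLOD3 (0.21) is the only gene above 0.

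Of the 10 genes, 9 had a log2 fold change below 0, with a median of -0.26, beside 9226 of all 16653 tested genes and a median of -0.04. Among the 9 are P4HA1, whose difference chose the set, and P4HA3, LOXL2 and LOXL4, for which no direction is given. No shared shift is therefore read from this count. Without vehicle replicate 001 the count was again 9 of 10, with a median of -0.36 beside -0.00245 for all genes. That library held the lowest vehicle value in 7 of the 10 genes, and in 33.4% of all tested genes. The spread was smaller under evexomostat in 8 of the 10, and in 80.8% of all genes.

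Variation among the vehicle tumours alone is not the contrast that chose the set, and it was used to ask whether the other 9 genes followed P4HA1 from tumour to tumour. Over the 6 vehicle libraries LOX had the highest correlation of log2 CPM with P4HA1, at a Pearson r of 0.78 (exact permutation p 0.05, adjusted 0.45 over 9 relations) and a Spearman rho of 0.66 (exact permutation p 0.175, adjusted 0.394). Without the 2 libraries farthest from the P4HA1 median, vehicle replicates 005 and 007, r was 0.03. On log2(RPM + 1) the 2 farthest were replicates 003 and 007, and r without them was 0.53. With 4 libraries left, these values cannot settle which tumours carry the relation. P4HA2 followed with an r of 0.61 (exact permutation p 0.197, adjusted 0.463) and a rho of 0.77 (exact permutation p 0.103, adjusted 0.394). Its r was 0.30 without vehicle replicates 005 and 007. PLOD1 had an r of 0.61 and LOXL2 of 0.60 (exact permutation p 0.194 and 0.206, both 0.463 adjusted). Their rho values were both 0.71 (exact permutation p 0.136, adjusted 0.394), and their r values 0.59 and 0.35 without the same 2 libraries. The other 5 members had r values from -0.02 for PLOD3 to 0.49 for PLOD2, with exact permutation p-values of 0.321 or more. Leaving out vehicle replicate 001 changed the order: over the other 5 vehicle libraries r was 0.94 for PLOD1 (exact permutation p 0.0583, adjusted 0.263), 0.82 for LOX (exact permutation p 0.05, adjusted 0.263) and 0.82 for P4HA2 (exact permutation p 0.1, adjusted 0.3). None of the 9 relations passed the adjustment with or without that library. For rho, 0.00278 is the smallest p-value that 6 libraries can give. With 5 libraries the smallest possible p-value is larger, and a single relation alone could not have passed, so nothing is read from that failure. The 5 evexomostat libraries were too few for a correlation.

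**Figure D4:**
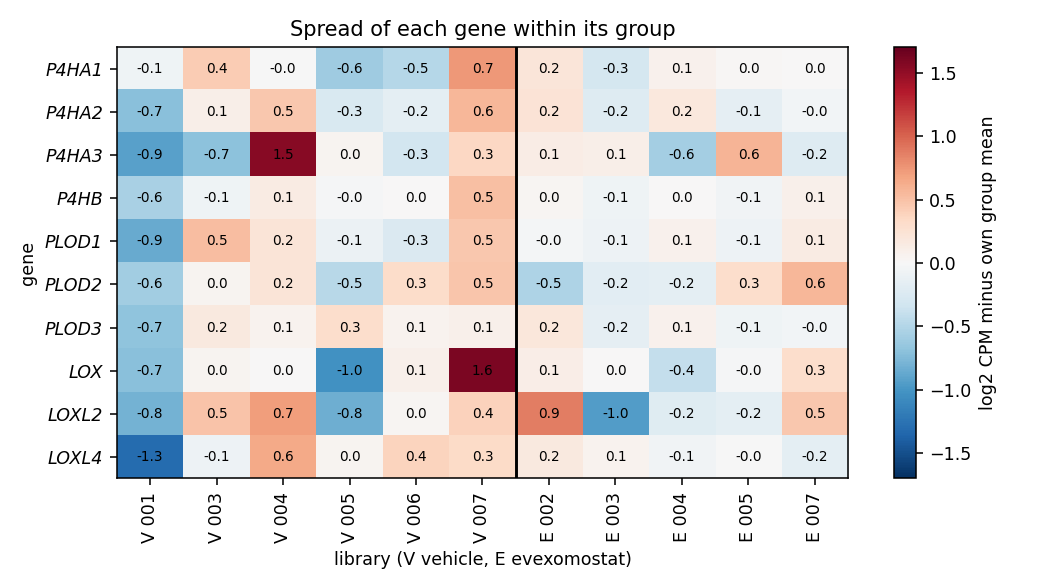
Difference of log2 CPM from the mean of its own group, for each gene (rows) and library (columns; V, vehicle; E, evexomostat), with red above and blue below the mean. Vehicle replicate 001 is below its group mean in all 10 genes, vehicle replicate 007 is above it in all 10, and the evexomostat columns are paler except for PLOD2, P4HA3 and LOXL2.

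The genes whose tumour-to-tumour pattern was most like that of P4HA1 were sought over all 11 libraries. The mean of each group had been removed, so that the difference in means played no part. The difference in spread remained, so the vehicle tumours, which spread more widely in P4HA1, weighed more in these correlations. Among 13230 genes with a mean log2 CPM of at least 1, the 8 highest Pearson correlations were those of PLEKHA2 (0.95), RLIM (0.94), GRPEL1 (0.94), BCLAF1 (0.94), BNIP3L (0.91), LTN1 (0.90), MBNL2 (0.90) and SLC16A1 (0.89). BNIP3L, a mitophagy receptor, was on the hypoxia list, and its log2 fold change was -0.92. The other 7 had log2 fold changes of -0.28 to 0.16. The nearest members were LOX (0.72, rank 219), P4HA2 (0.63, rank 480), LOXL2 (0.60, rank 596) and PLOD1 (0.59, rank 687). Without vehicle replicate 001 the nearest was PLOD1 (0.88, rank 62), followed by P4HA2 (0.80, rank 239), LOX (0.75, rank 458) and LOXL2 (0.64, rank 1078). Of the 24 hypoxia response genes ranked, 10 were among the 100 genes most like P4HA1, out of 13230 ranked over all 11 libraries. Their ranks moved both ways without vehicle replicate 001. BNIP3L went from 5 to 27 and PGK1 from 25 to 104, while PFKFB3 went from 205 to 5 and LDHA from 140 to 84. All these correlations share the same 11 libraries and their scaling, and are given without a p-value.

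The wider collagen pathway was read from lists of other genes. Of 27 further genes of collagen folding, processing and export, 26 were tested and 0 passed the edgeR threshold in either direction. DESeq2 and limma-voom also called 0. In edgeR the unadjusted p was under 0.05 for 3 genes, beside 2225 of all 16653 tested genes. Their median log2 fold change was -0.14, with 18 below and 8 above 0. The largest changes with a mean log2 CPM of at least 1 were in LOXL1, a lysyl oxidase of elastic fibres, at 0.72 (SE 0.37, edgeR adjusted p 0.428), and in FKBP14, a collagen-folding prolyl isomerase, at -0.46 (SE 0.17, edgeR adjusted p 0.249). The vehicle mean of LOXL1 was 11.3 ± 7.15 CPM (SD, n = 6) and its evexomostat mean 18.6 ± 4.81 (SD, n = 5). The collagen chaperone SERPINH1 averaged 205 ± 48.8 and 185 ± 15.9 CPM, and P3H1, which hydroxylates proline at another carbon, 123 ± 10.5 and 121 ± 6.76. These 2 genes were chosen after their values were seen.

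Among 31 collagen chain genes, the substrates of these enzymes, 29 were tested and 1 passed, COL14A1, a fibril-associated collagen. Its vehicle mean was 90.7 ± 51.9 CPM (SD, n = 6) and its evexomostat mean 16.7 ± 7.08 (SD, n = 5), with no overlap. COL14A1 thus fell by 2.45 log2 units (edgeR adjusted p 0.0308, SE 0.44). The list had a median of -0.17, with 19 below and 10 above 0. COL4A4 and COL15A1 had log2 fold changes of -2.85 (SE 0.78, edgeR adjusted p 0.124) and -2.16 (SE 0.69, edgeR adjusted p 0.190). The count of 1 became 0 when vehicle replicate 003, 004 or 007, or any evexomostat library, was left out. Without vehicle replicate 001 it was 4, COL14A1, COL4A1, COL4A3 and COL4A4, all lower. Fibroblast markers, which could mark mouse stroma, did not separate the groups. Their summed level over 8 markers was 57.8 to 163 RPM under vehicle and 61.2 to 130 under evexomostat. Of these 8 markers, 4 were higher under evexomostat. Their means over all libraries ran from 0.390 RPM for DCN to 26.7 for PDGFRB. Their part in the levels of the collagen genes and lysyl oxidases was not tested.

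P4HB belongs to the protein disulfide isomerases, and 20 other genes of that family and of its oxidases were examined. Of 19 tested, 0 passed in edgeR, DESeq2 or limma-voom. In edgeR the unadjusted p was under 0.05 for 1, beside 2225 of all 16653 tested genes. Their median log2 fold change was -0.18, the value of P4HB itself. QSOX1, a secreted sulfhydryl oxidase, was at -0.68 (SE 0.35, edgeR adjusted p 0.435) and ERO1A, the oxidase that recharges protein disulfide isomerase, at -0.41 (SE 0.21, edgeR adjusted p 0.421).

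The hypoxia response list, to which P4HA1, P4HA2, PLOD2 and LOX would belong but from which they were left out, had fold changes of 1 sign. All 25 genes had a log2 fold change below 0, with a median of -0.92 beside -0.04 for all genes and -0.26 for the 10 collagen enzymes. TMEM45A was the 1 gene of the list past the threshold, at -2.54 (SE 0.34, edgeR adjusted p 0.0138). In edgeR the unadjusted p was under 0.05 for 19, beside 2225 of all 16653 tested genes. CA9, a carbonic anhydrase of hypoxic cells, was at -3.86 (SE 0.84, edgeR adjusted p 0.0663) and NDRG1 at -2.12 (SE 0.65, edgeR adjusted p 0.170). The 1 call became 0 without evexomostat replicate 002, 005 or 007, 2 without vehicle replicate 005, and 12 without vehicle replicate 001. Of the members that are textbook hypoxia targets, P4HA1 was thus below the median of this list, and P4HA2, LOX and PLOD2 were above it.

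**Figure D5:**
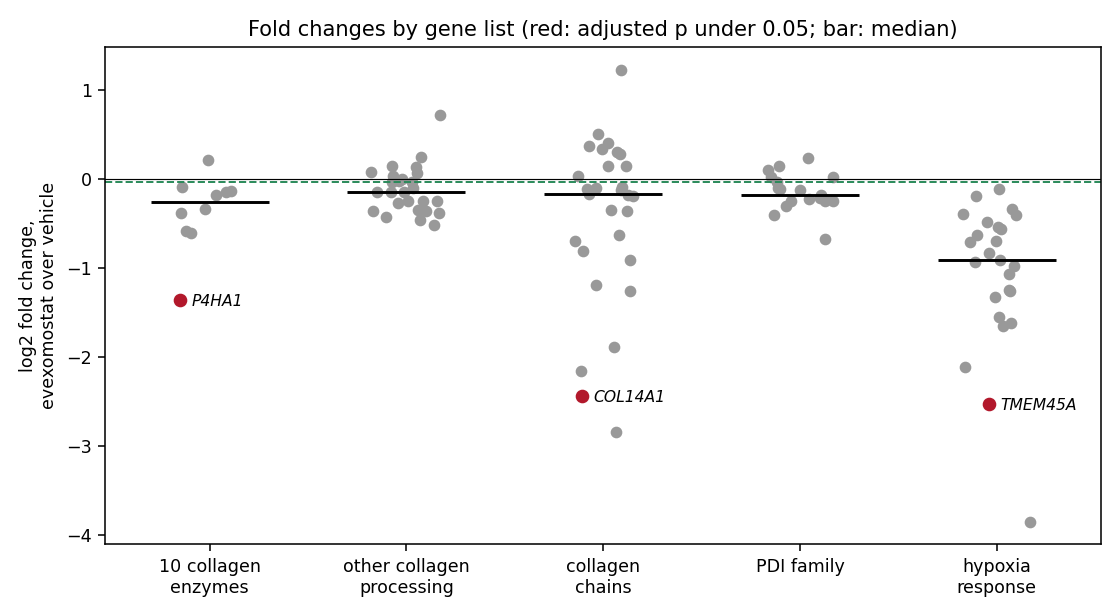
Log2 fold change, evexomostat over vehicle (edgeR), of each tested gene in 5 lists, with genes under an adjusted p of 0.05 in red, the list median as a bar and the median of all tested genes as a dashed line; horizontal scatter within a list has no meaning. The list medians are -0.26, -0.14, -0.17, -0.18 and -0.92 from left to right, and 1 gene is red in each of the first, middle and last lists.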

How the data were processed

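The 10 genes and the gene lists were chosen with earlier results of these data known. Library groups and replicate numbers came from the titles, and table columns were matched by the code in the sample description. Per the labels' protocols, total RNA of a frozen tumour portion was sequenced as paired-end reads. The submitters' processing notes name bcl2fastq 2.17, STAR 2.7.5c, featureCounts, Subread, edgeR and the build GRCh37 (hg19), without role or order. How mouse reads were treated, whether counting used strand, and which annotation was used are not given in the sources used here. Exons of P4HA2 and P4HA3 overlap antisense genes (P4HA2-AS1, 0 to 4 counts per library, and P4HA3-AS1, 0 to 2), and those of PLOD3 overlap ZNHIT1 by 6 bases on the other strand.

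The authors deposited raw read counts per gene symbol, the same scaled to library totals (RPM), and a comparison table with log2 fold changes and p-values. RPM equalled counts over column totals within 2.3e-13. The authors' test settings are not stated.

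Genes were kept with filterByExpr (minimum count 10, minimum total 15) and compared with edgeR 4.0.16 in R 4.3.3 (TMM, quasi-likelihood F-test, no covariates), with Benjamini-Hochberg adjustment over 16653 genes and a threshold of 0.05. Standard errors are those implied by the F statistic. Log2 CPM used a prior count of 2. Correlations used exact two-sided permutation of all pairings. Named were the 10 genes, up to 5 called genes per list (with fewer than 2, also the 2 largest changes at a mean log2 CPM of at least 1) and the 8 genes most like P4HA1. Alternatives were relative log expression and upper quartile factors, DESeq2 1.42.0, limma-voom and limma-trend on log2 RPM (limma 3.58.1), other filters, a replicate block and leaving out each library. On simulated counts of 16514 tested genes, edgeR recovered 60% of genes changed by 1 log2 unit and 97% of those changed by 2. Of the genes called, 4.27% were false with edgeR and 12.2% with DESeq2. The simulation gave each gene the spread typical of its level, equal in both groups. It held no library as unusual as vehicle replicate 001, so these rates need not hold for the real libraries. The labels do not say that libraries came from separate animals, so p-values measure the spread between these libraries. No pair of libraries was a duplicate (the smallest chi-square divided by its degrees of freedom was 15.5). At these depths counting error matters for P4HA3 only.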

Additional observations from a re-analysis of the deposited data

Results flagged for a closer look

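In 44 checks of the highest and lowest library against the rest of its group, over the 10 genes and the library totals, 3 values stood far from the others, where chance marks about 1 in 20 groups. In vehicle replicate 004, P4HA3 reached 5.15 CPM, while the other 5 vehicle libraries held 0.873 to 2.21. In vehicle replicate 001, PLOD3 was low at 119.7 CPM, while the others held 199.8 to 235. In vehicle replicate 007, LOX reached 41.3 CPM, while the others held 6.65 to 14.5. Vehicle replicate 007 also held the highest vehicle value of P4HA1 (202 CPM), P4HA2 (114), P4HB (799) and PLOD2 (45.0).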

How the results depend on the processing

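The total of 101 genes called became 649 with DESeq2 and 733 with the 8 libraries of shared numbers and no block, and ranged from 1 to 865 when one library was left out. The called members (1) were 0 with the replicate block and 3 on the same 8 libraries without it (P4HA1, P4HA2 and PLOD1), and 0 to 2 when one library was left out. Other collagen-processing genes (0) were 1 on those 8 libraries without the block. Collagen chains (1) were 3 with DESeq2, 0 with the block, 3 without it, and 0 to 4 when one library was left out. Hypoxia genes (1) were 12 with DESeq2, 2 with no count filter, 12 with the block, 16 without it, and 0 to 12 when one library was left out. The protein disulfide isomerase count stayed at 0 in all of these.

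The numbers 003, 004, 005 and 007 occur in both groups, but same-numbered libraries deviated with correlations of -0.27, 0.07, 0.05 and -0.10 and none matched its own number best, so tumours were not treated as paired. The block called 107 genes. P4HA1 had a log2 fold change of -1.50 with the replicate block and -1.19 to -1.57 over all 21 alternatives, and was past the threshold in 15. Sign changes, none past the threshold, were in P4HA3 (0.0631 with limma-voom, 0.0705 and 0.163 with limma-trend at pseudocounts of 1 and 0.1, -0.314 to 0.373 when one library was left out), LOXL4 (0.105 and 0.116 with limma-trend, -0.256 to 0.0434 when one library was left out) and LOXL2 (-0.416 to 0.0287 when one library was left out, with 0.00397 without vehicle replicate 004 and 0.0287 without evexomostat replicate 003). The correlation of P4HA1 with PLOD3 was 0.10 on log2(RPM + 1), and that with LOXL4 was -0.0369 without vehicle replicate 001. The cause was not tested for any of these.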
